A study of Mus musculus with 2 samples.

Results

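Microglia of PSAPP mice were read for 10 genes of inflammatory signalling, taken by name from the 32285 genes counted. They are the interleukins *Il1a*, *Il1b*, *Il6*, *Il12b*, *Il15* and *Il18*, the receptor antagonist *Il1rn*, the ligands *Tnf* and *Tnfsf8*, and the inflammasome sensor *Nlrp3*. PSAPP mice carry the mutant human transgenes APPswe and PS1.delta.E9 and deposit amyloid. All mice of both groups carried them, and neither a wild-type nor an untreated group was part of the comparison. Mice of both sexes received lemborexant (LEM, a dual orexin receptor antagonist, 30 mg/kg/day) or vehicle (VEH) by gavage for 30 days from 9 months of age, and microglia were sorted from cortex and hippocampus as live CD45lo CD11b+ cells. Each group is 1 library that pools 5 mice, so no test between treatments exists, and every difference below compares these 2 libraries.

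Microglia are the resident macrophages of the brain. Toll-like receptor ligands and other danger signals switch on the genes of *Il1a*, *Il1b*, *Tnf*, *Il6* and *Il12b* through NF-kB. The proteins of *Il1b* and *Il18* are made as inactive precursors, which caspase-1 cleaves once NLRP3 and the adaptor ASC (encoded by *Pycard*) have assembled an inflammasome. The product of *Il1rn* occupies the IL-1 receptor without signalling, IL-15 is presented to lymphocytes together with its alpha receptor, the product of *Il12b* is the p40 subunit of IL-12 and IL-23, and *Tnfsf8* encodes the CD30 ligand.

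The VEH library held 18374 cells with 116229678 counts of unique molecular identifiers (UMIs), and the LEM library held 24392 cells with 160752298 counts, at a median of 5971 and 6034 counts per cell. The microglial markers *Ctss*, *C1qa*, *C1qb*, *Cx3cr1* and *P2ry12* were each in 98.4% to 99.3% of cells of both libraries. Gates on raw marker counts found 49 VEH and 143 LEM droplets with choroid plexus transcripts, 24 and 64 like border-associated macrophages (BAM), 1 VEH cell like a monocyte and 0 like neutrophils or lymphocytes. Counts of *Xist* or of Y-linked genes named 5686 VEH and 8409 LEM cells female and 9025 and 11223 male. The sexes of a library are separate animals and give 4 pools, but how many mice stand behind each is not given in the sources used here. Droplets with counts of both kinds, 5.34% of VEH and 7.23% of LEM, can hold cells of both sexes or free RNA.

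Sequence just before the transcription start is shown for 6 members that differ in how their counts spread over cells, which is described further on. The RefSeq promoter table (GRCm38.p6) holds 9 of the 10 members. The last 100 bases before the start are given 5′ to 3′ on the strand of the gene, and capitals mark TATAAA. For *Tnfsf8* (63861284) and *Il18* (50554700) the RefSeq start is not the boundary of the GENCODE gene positions given below. The *Tnfsf8* stretch lies partly inside that gene span.
*Il1a* (chr2:129309973-129310072, minus strand): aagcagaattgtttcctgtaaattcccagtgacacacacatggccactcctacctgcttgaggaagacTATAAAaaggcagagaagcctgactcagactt
*Il1b* (chr2:129371140-129371239, minus strand): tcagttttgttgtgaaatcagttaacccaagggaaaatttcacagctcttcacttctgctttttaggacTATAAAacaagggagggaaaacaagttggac
*Tnf* (chr17:35202008-35202107, minus strand): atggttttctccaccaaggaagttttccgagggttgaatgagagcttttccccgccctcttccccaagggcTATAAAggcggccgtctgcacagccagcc
*Il12b* (chr11:44399963-44400062, plus strand): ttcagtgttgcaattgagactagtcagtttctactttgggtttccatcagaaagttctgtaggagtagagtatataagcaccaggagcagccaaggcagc
*Il18* (chr9:50554600-50554699, plus strand): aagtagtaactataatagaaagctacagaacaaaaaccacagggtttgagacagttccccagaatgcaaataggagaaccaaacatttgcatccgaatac
*Tnfsf8* (chr4:63861285-63861384, minus strand): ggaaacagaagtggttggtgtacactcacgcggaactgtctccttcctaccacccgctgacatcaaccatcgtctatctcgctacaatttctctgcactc
The letters TATAAA, searched on the strand of the gene at 40 to 20 bases before the start, were present in *Il1a* (from 32 bases before it), *Il1b* (31) and *Tnf* (29), 3 of 9 members. They were present there in 1.99% of the 32851 promoters of the table. That share counts promoters, whereas each member is counted once here, also *Il1rn* and *Nlrp3*, which have several starts. The match describes these letters and no site in use.

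*Il1a*, the alarm cytokine released by dying or activated cells, was the member found in the most cells. It lies on chromosome 2 (129299610 to 129309972, minus strand, GRCm38), and 58.8% of VEH and 62.6% of LEM cells held at least 1 count. The level was 252 CPM (counts scaled to the total of the library; 95% Poisson interval 249 to 255) in VEH and 270.5 (268 to 273) in LEM. In female and male cells the values were 258 and 251 CPM in VEH and 260.5 and 280 in LEM. The log2 ratio of LEM over VEH was 0.10 (0.08 to 0.13). It was 0.01 in female and 0.16 in male cells, so the difference lay mostly in male cells. Intervals here and below cover counting error only.

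*Il1b*, the main secreted form of IL-1, was in few cells. It sits next to *Il1a* on chromosome 2 (129364570 to 129371139, minus strand) and had a count in 1.88% of cells in VEH and 2.39% in LEM. The level was 5.70 CPM (5.28 to 6.16) in VEH and 6.89 (6.49 to 7.30) in LEM, a log2 ratio of 0.27 (0.13 to 0.41). It was 4.76 and 5.97 CPM in female and male VEH cells, and 5.49 and 7.88 in female and male LEM cells. Female cells gave a log2 ratio of 0.20 (-0.07 to 0.48), an interval that included 0, and male cells 0.40 (0.21 to 0.60). Male VEH cells lay above female LEM cells.

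*Il1rn*, the antagonist that opposes both, was rarer still. On chromosome 2 (24336853 to 24351494, plus strand) it had 86 counts in 32 VEH cells and 334 counts in 66 LEM cells. The level was 0.740 CPM (0.592 to 0.914) in VEH and 2.08 (1.86 to 2.31) in LEM, a log2 ratio of 1.49. Most of that came from single cells: 2 VEH cells held 48.8% of the library's counts and 4 LEM cells held 71.0%. In cells with under 10 counts of the gene the log2 ratio was 0.67 (0.14 to 1.22). Female and male cells had 0.11 and 1.08 CPM in VEH, with only 4 counts in the female cells, and 0.71 and 1.97 in LEM. Male VEH cells thus lay above female LEM cells.

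*Tnf*, a ligand made by activated macrophages, differed in opposite directions in the sexes. It lies on chromosome 17 (35199381 to 35202007, minus strand) and had a count in 11.1% of cells in VEH and 10.1% in LEM. The library levels were 35.8 CPM (34.7 to 36.9) in VEH and 34.0 (33.1 to 34.9) in LEM, a log2 ratio of -0.07. Female cells had 29.8 CPM in VEH and 41.5 in LEM (log2 ratio 0.48, 0.37 to 0.58). Male cells had 39.9 CPM in VEH and 27.7 in LEM (-0.53, -0.62 to -0.44). The library value is an average over these opposite differences, and without cells of 10 or more counts it was -0.20.

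*Il6*, which signals through the shared receptor subunit gp130, showed the same split. On chromosome 5 (30013114 to 30019981, plus strand) it was in 6.2% of cells in VEH and 7.81% in LEM, of which 14.4% and 15.1% held more than 1 count. The library levels were 11.4 CPM (10.8 to 12.1) in VEH and 13.9 (13.4 to 14.5) in LEM, a log2 ratio of 0.28. In female cells it went from 8.49 CPM in VEH to 16.7 in LEM (0.98), and in male cells from 13.5 to 11.7 (-0.20, -0.34 to -0.06). *Nlrp3* on chromosome 11 (59541568 to 59566956, plus strand) was in 39.8% of VEH and 42.0% of LEM cells, at 94.5 and 98.1 CPM (log2 ratio 0.05). Its female cells had 98.7 CPM in VEH and 118 in LEM (0.25), and its male cells 91.5 and 84.3 (-0.12). Female LEM cells were thus the highest of the 4 pools for *Tnf*, *Il6* and *Nlrp3*, although for *Tnf* their interval (39.8 to 43.2) overlapped that of male VEH cells (38.3 to 41.6).

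*Il18*, the other substrate of caspase-1, was slightly higher in LEM in both sexes. On chromosome 9 (50554827 to 50581840, plus strand) it was in 32.7% of VEH and 36.3% of LEM cells. The levels were 69.4 CPM (67.9 to 70.9) in VEH and 76.5 (75.2 to 77.9) in LEM, a log2 ratio of 0.14 (0.10 to 0.18). Female and male cells had 69.0 and 70.8 CPM in VEH and 73.9 and 79.0 in LEM. Both LEM pools were above both VEH pools, but the intervals of female LEM cells (71.6 to 76.2) and male VEH cells (68.6 to 73.0) overlapped.

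*Il15*, a survival factor for natural killer and memory T cells, was the member that was lower in LEM in both sexes. On chromosome 8 (82331632 to 82403222, minus strand) it was in 28.4% of VEH and 25.9% of LEM cells. The levels were 59.4 CPM (58.0 to 60.8) in VEH and 49.7 (48.6 to 50.8) in LEM, a log2 ratio of -0.26 (-0.31 to -0.21). Female and male cells had 66.6 and 55.2 CPM in VEH and 51.0 and 49.3 in LEM. Both LEM pools were below both VEH pools, and the interval of the highest LEM pool (49.1 to 52.9) did not reach that of the lowest VEH pool (53.3 to 57.1).

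*Tnfsf8*, which binds the receptor CD30 on lymphocytes, had the largest log2 ratio of the 8 members found in at least 1% of cells. On chromosome 4 (63831308 to 63861347, minus strand) it was in 8.20% of VEH cells (7.80 to 8.60, Clopper-Pearson interval) and 13.4% of LEM cells (12.9 to 13.8). The levels were 16.1 CPM (15.4 to 16.8) in VEH and 26.1 (25.3 to 26.9) in LEM, 1.62 times higher. Female and male cells had 17.7 and 15.1 CPM in VEH and 28.2 and 25 in LEM, so the sexes stood close together within a library and apart between libraries. Positive cells held 1.24 counts on average in VEH and 1.29 in LEM, as few cells at so low a level hold more than 1.

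*Il12b* was counted in 10 VEH and 17 LEM cells (chromosome 11, 44400063 to 44414033, plus strand), with 40 and 211 counts. The log2 ratio of 1.93 rested on 6 cells of 10 or more counts, of which 1 was in VEH and 5 in LEM. Without them the ratio was -0.09 (-0.99 to 0.83), with 20 counts in VEH and 26 in LEM.

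**Figure D1:**
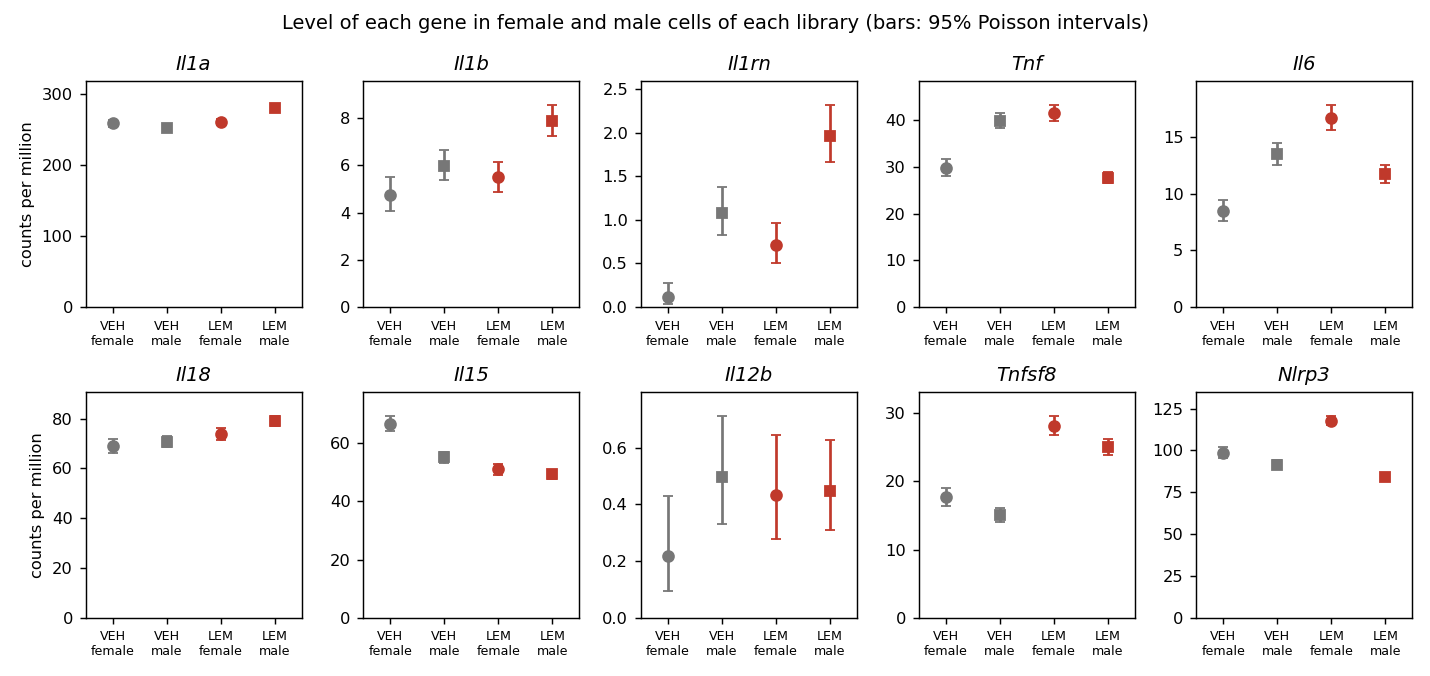
Level of each member in CPM (vertical axes from 0) in female (circles) and male (squares) cells of the VEH (grey) and LEM (red) libraries, with 95% Poisson intervals. *Tnfsf8* is higher in both LEM pools (28.2 and 25 against 17.7 and 15.1), *Il15* is lower in both, and *Tnf*, *Il6* and *Nlrp3* are highest in female LEM cells.

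Set beside all genes, 5 of the 8 members that reached 1% of cells in a library (*Il1a*, *Il1b*, *Il6*, *Il18* and *Tnfsf8*) were higher in LEM by a log2 ratio past 0.1. Of the 11905 genes that met the same minimum, 21% were higher by that much. *Il15* alone was lower, against 14.2% of genes. *Il1a* was only just past 0.1. Past 0.1 in both sexes as well, *Il1b*, whose female interval included 0, and *Tnfsf8* were higher (9.95% of genes) and *Il15* was lower (6.47%). Both LEM pools were above both VEH pools for *Il1a*, *Il18* and *Tnfsf8* (22.7% of genes) and below them for *Il15* (15.2%). *Tnf*, *Il6* and *Nlrp3* moved past 0.1 in opposite directions in the sexes, which 10.3% of genes did. The median log2 ratio was 0.12 over the 8 members and 0.01 over all 11905 genes.

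**Figure D2:**
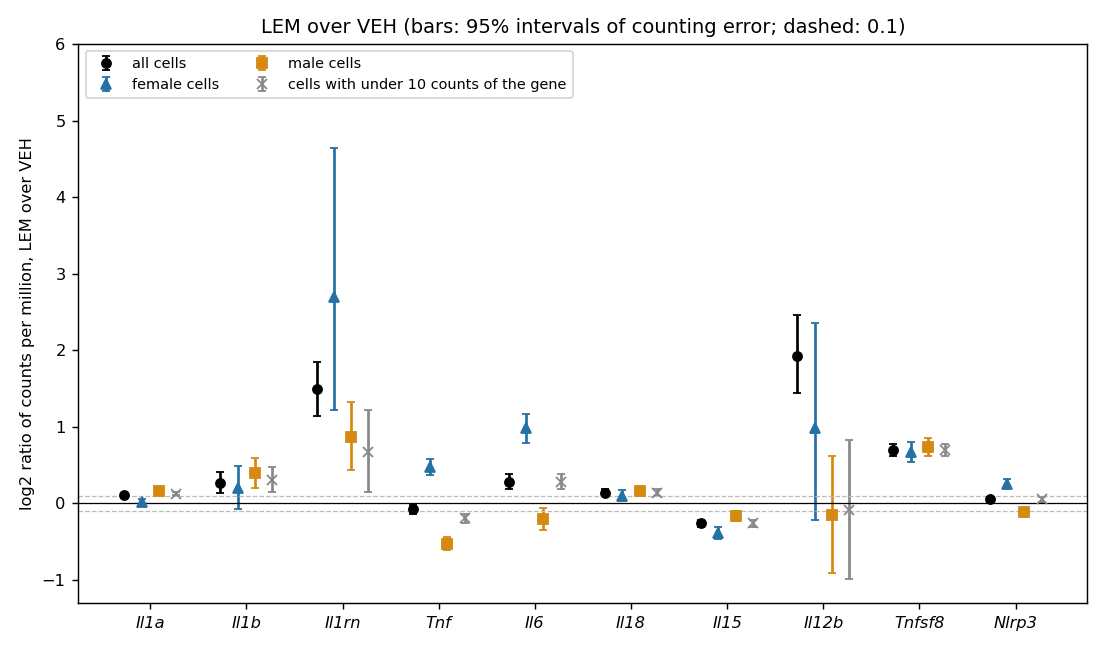
Log2 ratio of CPM, LEM over VEH, for each member in all cells (black), female cells (blue), male cells (orange) and cells with under 10 counts of the gene (grey crosses), with 95% intervals of counting error and dashed lines at 0.1 either way. The sexes lie on opposite sides of 0 for *Tnf* (0.48 and -0.53), *Il6* (0.98 and -0.20) and *Nlrp3* (0.25 and -0.12), and the values of *Il1rn* and *Il12b* drop once cells of 10 or more counts are left out.

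The members differed in how their counts were spread over cells. *Il6*, *Il15*, *Il18*, *Tnfsf8* and *Nlrp3* never reached 10 counts in a cell, and in cells thinned to 2000 counts their variance was 1.05 to 1.15 times their mean. Random sampling of a constant level gives 1, but at means this low the ratio lies near 1 even where levels differ between cells. It therefore does not show that the levels of these genes were constant. *Il1b*, *Tnf*, *Il1rn* and *Il12b* were spread unevenly. The variance of *Tnf* was 1.90 times its mean in VEH and 2.64 times in LEM, and that of *Il1b* was 1.81 and 2.97 times. One LEM cell held 95 counts of *Tnf*, another 67 of *Il1b*, another 109 of *Il1rn* and another 73 of *Il12b*. *Il1a* was both frequent and uneven, with up to 35 counts in a VEH cell and 57 in a LEM cell. Of the 3 members with TATAAA before the start, each belonged to the uneven kind. *Il1rn* and *Il12b* also did and had no TATAAA in that window. The *Il12b* stretch does hold the letters tatataa there, which a search for TATAAA alone does not count.

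**Figure D3:**
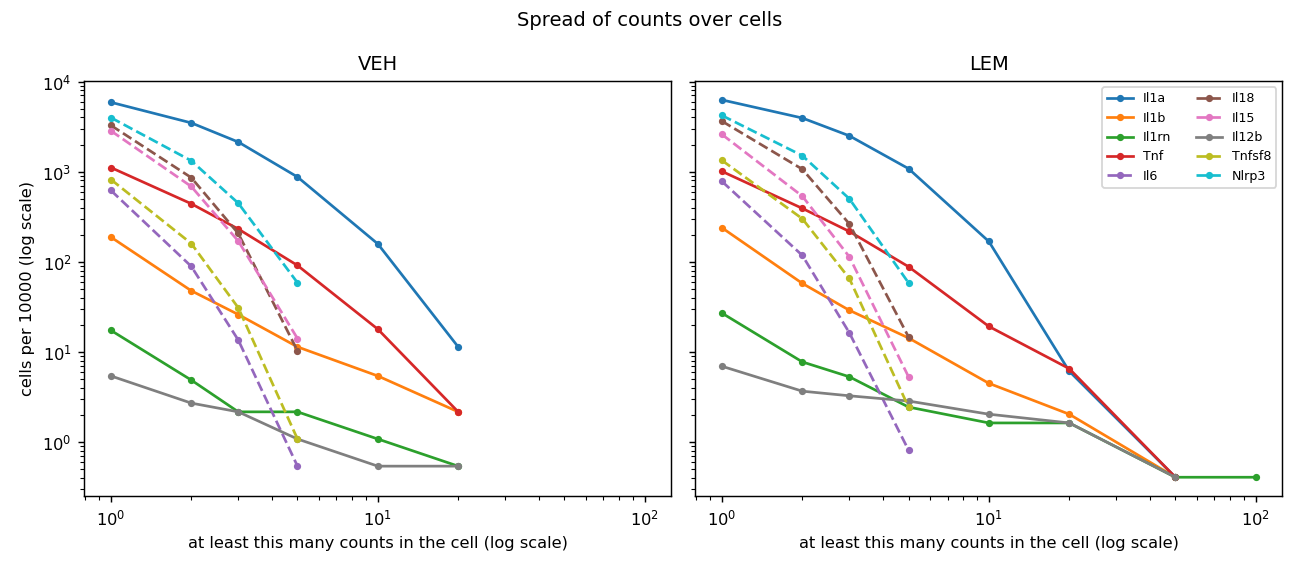
Cells per 10000 (log scale) that held at least the given number of counts (log scale) of each member in VEH and LEM. The dashed lines of *Il6*, *Il15*, *Il18*, *Tnfsf8* and *Nlrp3* end before 10 counts, whereas the solid lines of *Il1a*, *Il1b*, *Il1rn*, *Tnf* and *Il12b* run on past it.

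Cells with 10 or more counts of a member (a limit chosen after the values were seen) made up a small share of cells and a larger share of counts. For *Il1a* they were 291 VEH and 411 LEM cells with 13.1% and 11.9% of its counts. For *Tnf* they were 33 and 47 cells with 11% and 18.2%. For *Il1b* they were 10 and 11 cells with 25.6% and 23.9%. Every one of these 21 *Il1b* cells also held *Il1a*, and *Tnf* was in 2 of the 10 in VEH and 9 of the 11 in LEM. Poisson intervals assume that counts fall independently, which such cells break, so for *Il1a*, *Il1b*, *Il1rn*, *Tnf* and *Il12b* they are too narrow, in the states below as well.

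The 6 cells high in *Il12b* mostly held other members too. The VEH cell held 20 counts of *Il12b*, 8 of *Il1a* and 1 of *Tnf*. All 5 LEM cells held *Il1a* and *Tnf*, and 3 of them held 10 or more counts of each. One was male, had the marker genes of disease-associated microglia (DAM) and held 31 counts each of *Il12b* and *Il1b*, 33 of *Il1a* and 39 of *Tnf*. Another held 36 counts of *Il12b* and 95 of *Tnf*, the most *Tnf* of any cell. Of these 5 cells, 2 had counts of both *Xist* and Y-linked genes, and whether they were droplets of several cells was not tested.

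Cell states were gated on markers that include no member. By order of gating they were proliferating-like (136 VEH and 200 LEM cells), interferon-like (331 and 572), DAM-like (449 and 576), MHC class II-like (70 and 61), high in the chemokines *Ccl3* and *Ccl4* (2450 and 3371) and homeostatic-like (14248 and 18602). Among the genes most raised outside a gate's own markers were *Prc1* and *Hmmr* in the proliferating-like, *Cxcl10* and *Oasl1* in the interferon-like and *Igf1* and *Ch25h* in the DAM-like gate. The MHC class II-like gate also led with *Ms4a7* and *Mgl2*, which BAM share. The *Ccl3* and *Ccl4* high and homeostatic-like gates were led outside their own markers by *Gm13889* and *Slco4a1*, at log2 ratios of only 1.00 and 0.83, so beyond their own markers these gates are weakly set apart. Depth differed, from a median of 5788 counts in homeostatic-like VEH cells to 11700 in DAM-like LEM cells, so shares are given at 2000 counts per cell. At that depth 17069 VEH and 23177 LEM cells remained. Droplets with counts of both sexes were also unevenly spread. They were 4.52% of VEH and 6.09% of LEM homeostatic-like cells, 5.15% and 8.5% of proliferating-like, 8.74% and 11.98% of *Ccl3* and *Ccl4* high, 9.58% and 12.7% of DAM-like, 9.67% and 14.0% of interferon-like and 14.3% and 18.03% of MHC class II-like cells. With them left out, 33 levels of a member in a state and library were over 2 times from the homeostatic-like level, against 32 with them.

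*Tnf* was most frequent in proliferating-like cells, which carry mitotic genes such as *Mki67* and *Top2a*. At 2000 counts it was in 22.8% of these cells in VEH (16.0 to 30.8) and 16.8% in LEM (11.8 to 22.7), against 4.32% and 3.64% of homeostatic-like cells. The levels were 177 and 127 CPM against 28.9 and 23.9. Cells high in *Ccl3* and *Ccl4* had *Tnf* in 7.95% and 7.40%, at 54.8 and 58.4 CPM. Interferon-like cells had it in 7.06% and 7.38%, at 53.5 CPM in VEH and 105 in LEM. The shares of interferon-like cells were thus alike in the libraries while the levels were not, and 11 LEM and 2 VEH cells of that state held 10 or more counts. Without these the levels were 42.4 and 40.8 CPM.

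*Il1b* was in 0.609% (0.484 to 0.756) of VEH and 0.666% (0.552 to 0.797) of LEM homeostatic-like cells at 2000 counts, and in larger shares of DAM-like, MHC class II-like and *Ccl3* and *Ccl4* high cells in both libraries, with intervals that did not overlap these. In DAM-like cells it was in 2.72% (1.41 to 4.71) and 1.75% (0.843 to 3.20), at 19.6 and 19.5 CPM against 3.43 and 4.11. In VEH 3 male DAM-like cells held 43 of its 99 counts and in LEM 2 cells held 47 of 132, and without cells of 10 or more counts the levels were 11.2 and 12.6 CPM against 2.90 and 3.68. In VEH the level was 5.02 CPM in female and 30.1 in male DAM-like cells. Interferon-like cells held it in 1.84% (0.678 to 3.96) and 1.93% (0.969 to 3.43), of which the VEH interval overlapped, and cells high in *Ccl3* and *Ccl4* in 1.36% and 1.64%. MHC class II-like cells had the highest shares, 5.97% (1.65 to 14.6) and 16.7% (8.29 to 28.5), with at most 3 and 5 counts per cell, so that no single cell carried the level. In VEH proliferating-like cells 21 of the 29 counts lay in 1 cell. Within cells high in *Ccl3* and *Ccl4*, *Il1b* was 9.31 CPM in VEH and 14.0 in LEM, but 46 of 179 VEH counts lay in 3 cells and 167 of 378 LEM counts in 7. Without those the levels were 6.92 and 7.81 CPM. The sexes went opposite ways there, from 8.90 to 7.89 CPM in female and from 11.7 to 22.3 in male cells.

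*Il1a* was lower in DAM-like cells, by contrast. It was in 25.6% of them in VEH and 24.2% in LEM, against 33.5% and 35.9% of homeostatic-like cells, at 173 CPM in both libraries against 248 and 273.5. The LEM over VEH log2 ratio of this gene was 0.14 (0.12 to 0.17) in homeostatic-like cells, the bulk of each library. It was 0.00 (-0.13 to 0.13) in DAM-like, -0.15 (-0.29 to -0.02) in interferon-like and -0.42 (-0.61 to -0.23) in proliferating-like cells. The DAM-like interval included the ratio over all cells, and the difference between states was not tested. Without cells of 10 or more counts the levels were 213 and 209.5 CPM in interferon-like and 244 and 199 in proliferating-like cells.

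*Il18* followed the interferon-like state. It was in 19.6% (15.5 to 24.4) of these cells in VEH and 20.4% (17.1 to 23.9) in LEM, against 13.4% and 14.5% of homeostatic-like and 8.16% and 8.06% of DAM-like cells. The levels were 110 and 111 CPM in interferon-like, 72.2 and 79.7 in homeostatic-like and 41.6 and 42.5 in DAM-like cells. *Il15* had the same order, with 79.2 and 68.5 CPM in interferon-like, 60.2 and 49.8 in homeostatic-like and 39.0 and 32.6 in DAM-like cells. Its LEM over VEH log2 ratio was below 0 in all 6 states, from -0.78 in proliferating-like to -0.12 in cells high in *Ccl3* and *Ccl4*, with an interval off 0 in the homeostatic-like (-0.27) and proliferating-like states.

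*Tnfsf8* was higher in DAM-like, MHC class II-like and interferon-like cells than in homeostatic-like cells. In DAM-like cells it was 36.6 CPM in VEH and 54.1 in LEM, in MHC class II-like cells 55.5 and 46.6, and in interferon-like cells 27.7 and 36.1, against 13.7 and 23.2 in homeostatic-like cells. The LEM over VEH log2 ratio was 0.76 (0.66 to 0.86) in homeostatic-like, 0.66 (0.47 to 0.84) in cells high in *Ccl3* and *Ccl4* and 0.56 (0.30 to 0.82) in DAM-like cells. It was 0.75 (-0.02 to 1.58) in proliferating-like and 0.38 (-0.02 to 0.80) in interferon-like cells, and was below 0 in the few MHC class II-like cells (-0.25, -1.08 to 0.55). *Nlrp3* ran from 60.0 and 68.5 CPM in proliferating-like cells to 97.8 and 96.5 in cells high in *Ccl3* and *Ccl4*, and was 101 in homeostatic-like LEM cells. *Il6* was in 1.05% to 3.99% of cells of the other states at 2000 counts, and in 2 of 67 VEH and 0 of 60 LEM cells of the MHC class II-like state.

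**Figure D4:**
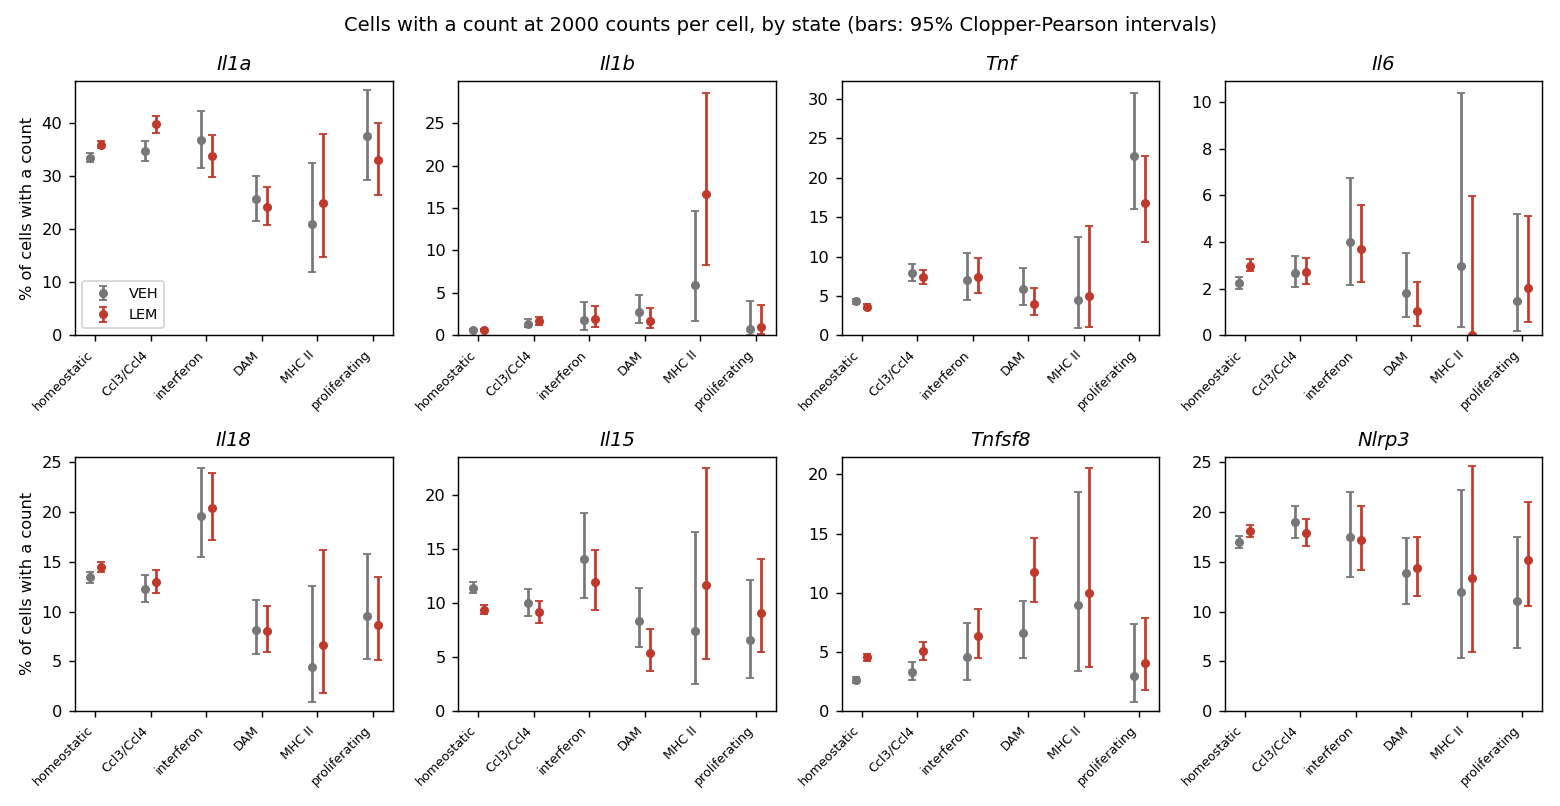
Percent of cells with at least 1 count of each member after thinning to 2000 counts (vertical axes from 0), by gated state, in VEH (grey) and LEM (red), with 95% Clopper-Pearson intervals. *Tnf* stands out in proliferating-like cells (22.8% and 16.8%), *Il18* in interferon-like cells (19.6% and 20.4%), *Il1b* in MHC class II-like cells (5.97% and 16.7%), and *Il1a* and *Il18* are lower in DAM-like than in homeostatic-like cells.

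Choroid plexus-like droplets gave a level of free or mixed RNA. They also held microglial RNA, as given below, so a share near theirs does not mark a member as background. As deposited, *Il6* was in 8.16% of the 49 VEH and 9.79% of the 143 LEM droplets, above its share over all cells, and at 2000 counts in 2.13% and 1.47%, against 2.30% and 2.87% of all cells, so the share of *Il6* could not be told from that level at this depth. *Il1b* was in 1 of the 49 VEH and 2 of the 143 LEM droplets as deposited (2.04% and 1.40%), against 1.88% and 2.39% of all cells. So few positive droplets, at unequal depths, cannot tell whether its share was above that level. *Tnfsf8* was in 2.04% of VEH and 11.2% of LEM droplets, against 8.20% and 13.4% of all cells, and at 2000 counts in 0 of 47 (0 to 7.55%) and in 2.21% (0.457 to 6.31). *Il18* was in 32.7% and 27.3% of the droplets as deposited, against 32.7% and 36.3% of all cells, so at these unequal depths its VEH share was not above that level. At 2000 counts it was in 10.6% (3.55 to 23.1) and 4.41% (1.64 to 9.36) of the droplets, against 13.1% and 14.05% of all cells. *Il15* was in 24.5% and 20.3% against 28.4% and 25.9%, and *Nlrp3* in 26.5% and 32.9% against 39.8% and 42.0%. At 2000 counts *Il15* was in 6.38% (1.34 to 17.5) and 3.68% (1.20 to 8.37) of the droplets, against 11.3% and 9.40% of all cells. *Nlrp3* was then in 0 of 47 (0 to 7.55%) and 7.35% (3.58 to 13.1), against 17.2% and 17.9%. The droplet levels of *Il18* (39.7 and 39.9 CPM) and *Il15* (31.4 and 31.3) were near those of DAM-like cells. *Tnf* was in 10.2% and 9.79% of the droplets, against 11.1% and 10.1% of all cells, and at 2000 counts in 2.13% and 2.94% against 5.08% and 4.4% of all cells. Its level was 12.5 CPM (4.60 to 27.3) in VEH and 24.3 (16.5 to 34.4) in LEM droplets, against 28.9 and 23.9 in homeostatic-like cells. As counted, the LEM level of homeostatic-like cells was thus not above the droplets', but 12 of the 31 LEM droplet counts lay in 1 droplet. Without cells of 10 or more counts the LEM levels were 15 CPM in the droplets and 22.2 in homeostatic-like cells. The median depths of the droplets were 9338 and 8161 counts. These droplets are not free of microglia, since the 5 microglial markers summed to 18090 and 14780 CPM in them, against 28420 and 28890 in homeostatic-like cells. Per 1000 counts of those markers, *Il1a* stood at 8.66 and 9.06 in the droplets and at 8.72 and 9.47 in homeostatic-like cells. On the same scale *Il18* was at 2.20 and 2.70 in the droplets and 1.67 and 1.70 in DAM-like cells, and *Il15* at 1.73 and 2.12 against 1.57 and 1.30. *Il6* was at 0.578 and 0.901 in the droplets and 0.417 and 0.512 in homeostatic-like cells. Neither the CPM nor the shares of the droplets are thus a clean background.

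Among the 8 members in at least 1% of cells, *Il1b* was found with *Tnf* and with *Il1a* at the highest log2 odds ratios in both libraries. Some pairs with *Il1rn* or *Il12b* had higher ones, which rest on very few cells. At 2000 counts, 38.8% of VEH and 36.9% of LEM cells held none of the 10, 40.6% and 41.0% held 1, and 3 VEH and 13 LEM cells held 5 or more. *Tnf* was in 10.7% (6.12 to 17.1) of cells with *Il1b* and 5.03% (4.71 to 5.37) of those without in VEH, and in 12.9% (8.65 to 18.2) and 4.32% (4.06 to 4.59) in LEM. *Il1a* was in 47.1% of cells with *Il1b* and 33.3% of those without in VEH, and in 46.2% and 35.6% in LEM. *Tnf* was in 6.14% of cells with *Il1a* and 4.55% of those without in VEH, and in 5.22% and 3.94% in LEM. In all 3 pairs a cell with the first gene thus held the second more often than a cell without it did, in both libraries.

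The inflammasome sensor was about as frequent in cells with *Il18* as in cells without it. *Nlrp3* was in 17.0% of cells with *Il18* and 17.2% of those without in VEH, and in 18.3% and 17.8% in LEM, and the log2 odds ratios were -0.03 and 0.05. *Nlrp3* and *Il1b* had log2 odds ratios of -0.21 in VEH and 0.30 in LEM. Pairs among *Il6*, *Il15*, *Il18*, *Tnfsf8* and *Nlrp3* had log2 odds ratios from -0.29 to 0.38. *Il12b* was in 13 LEM cells at this depth, of which 7 held *Tnf* and 10 held *Il1a*, and in 6 VEH cells, of which 0 held *Tnf* and 3 held *Il1a*.

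**Figure D5:**
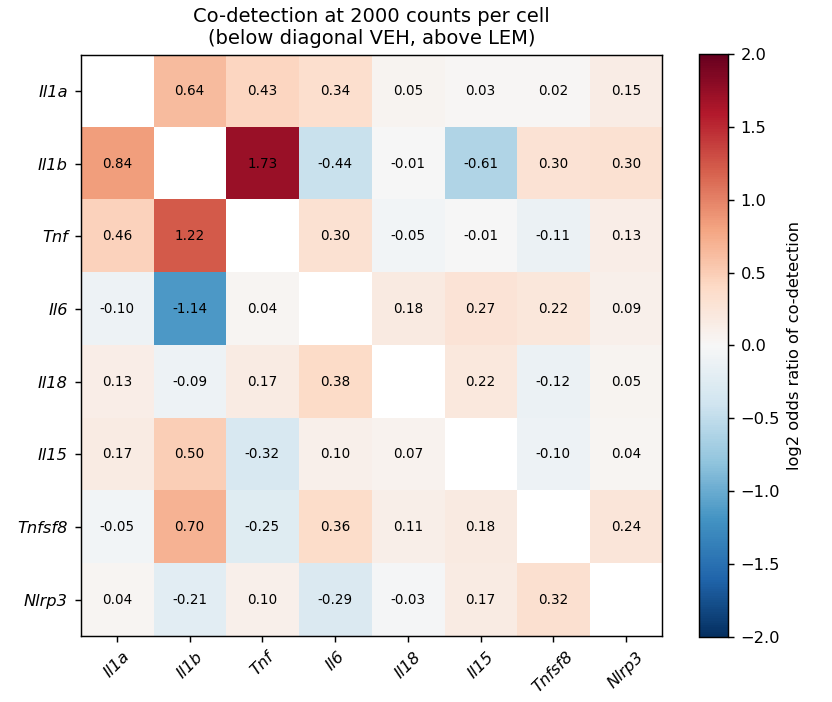
Log2 odds ratio of finding both members in a cell thinned to 2000 counts (color scale from blue, below 0, to red, above 0), with VEH below the diagonal and LEM above. Of the 8 members drawn, those in at least 1% of cells, the highest values in both libraries belong to *Il1b* with *Tnf* (1.22 and 1.73) and *Il1b* with *Il1a* (0.84 and 0.64), and *Il18* with *Nlrp3* is near 0.

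Over thinned cells, the genes most like each member were ranked by the lower of its Pearson r values in the 2 libraries, among 10045 genes. *Tnf* was followed by *Ccl4* (r = 0.10 in VEH and 0.12 in LEM), *Ccl3* (0.08 and 0.08) and *Nfkbia* (0.07 and 0.09), which encodes the inhibitor of NF-kB that NF-kB induces. *Il1a* was followed by *Gm14023* (0.14 and 0.16), *Btg2* (0.07 and 0.07) and *Zfp36* (0.07 and 0.08), which encodes tristetraprolin, a protein that marks cytokine mRNA for decay. *Il18* was followed by the interferon-induced genes *Ifit3b* (0.04 and 0.04) and *Ifit3* (0.04 and 0.05), and *Tnfsf8* by *Plxdc2* (0.05 and 0.05). All of these r values are small, and cells of 1 library share its depth and free RNA.

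*Gm14023* overlaps *Il1a* on the other strand, and 3 members overlap another gene in this way. The sources used here do not state whether counting used strand, so whether reads of such pairs were kept apart is not known here. *Gm14023* was 22.5 CPM in VEH and 22.7 in LEM, and it was in 6.67% and 7.16% of thinned cells with *Il1a* against 2.63% and 2.32% of those without. *Bco2*, which overlaps *Il18*, was 56.2 and 55.6 CPM (log2 ratio -0.01), so the difference in *Il18* was not mirrored there. *Il1bos*, which overlaps *Il1b*, was 0.878 and 0.809 CPM.

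Receptors for these ligands were present unevenly. *Tnfrsf1a* and *Tnfrsf1b*, the receptors of TNF, were in 68.3% and 50.1% of VEH cells and 71.5% and 50.7% of LEM cells, at log2 ratios of 0.06 and -0.02. The IL-6 receptor genes *Il6ra* and *Il6st* were in 74.9% and 49.1% of VEH cells. *Il6st* was higher in LEM (134 CPM in VEH against 148, log2 ratio 0.15), at 0.07 in female and 0.21 in male cells. *Il1r1* was in 1.77% and 1.98% of cells and its partner *Il1rap* in 6.03% and 6.05%. The decoy *Il1r2* had 89 and 125 counts, and *Il18r1* 44 and 73. *Tnfrsf8*, which encodes the receptor of the CD30 ligand, had 35 counts in VEH and 36 in LEM, *Il12rb1* had 5 and 7, and *Il2rb*, which IL-15 needs to signal, had 0 in both, which allows up to 3 counts per library.

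*Il18rap*, which encodes the accessory chain of the IL-18 receptor, had the highest log2 ratio of the IL-1 family genes found in at least 1% of cells. It was 2.01 CPM in VEH and 3.59 in LEM (log2 ratio 0.83), with opposite directions in female (-0.21) and male (1.84) cells. *Il33*, an alarmin that glia other than microglia make, had the lowest ratio, at 18.6 CPM in VEH and 12.1 in LEM (-0.62), and was lower in both sexes. Of the 10 such genes, 4 were higher past 0.1 and 1 was lower, with a median of 0.09, but 3 of the 4 were *Il1a*, *Il1b* and *Il18*, which are counted above. Among the other 7 genes 1 was higher and 1 lower, with a median of -0.02, where 21% of all genes were higher and 14.2% lower.

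Among the 16 genes of the inflammasome and pyroptosis list in at least 1% of cells, beside *Nlrp3* itself, 5 were higher past 0.1 in LEM (21% of all genes) and 1 was lower (14.2%), with a median of 0.04. *Pycard* was the highest, at 177 CPM in VEH and 209 in LEM (0.24), in female (0.57) but not male (0.00) cells. *P2rx7*, the ATP-gated channel that triggers NLRP3, was 134 and 151 CPM (0.17; 0.11 in female and 0.23 in male cells). *Nlrp1b*, another sensor, was the lowest, at 80.6 and 69.6 CPM (-0.21), in both sexes. *Casp1* (0.08), *Gsdmd* (0.03), *Nek7* (-0.04) and *Txnip* (0.02) stayed within 0.1.

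Of the 26 genes of NF-kB and its feedback, 3 were higher past 0.1 and 6 were lower, with a median of -0.03, and here as for the lists that follow the shares over all genes were 21% and 14.2%. *Bcl3*, which encodes a nuclear IkB protein, was the highest (4.58 and 6.31 CPM, 0.46, higher in both sexes), and *Nfkbid*, another, was the lowest (-0.22), at 0.17 in female and -0.55 in male cells. Of 16 genes of the TNF superfamily, its receptors and their signalling and shedding, other than *Tnf* and *Tnfsf8*, 4 were higher and 2 lower (median 0.04). The lowest was *Ripk3*, a kinase of necroptosis (-0.13, -0.28 to 0.01), with an interval that included 0. *Adam17*, the protease that sheds TNF, was at 0.04. Of 17 partners of IL-6, IL-12 and IL-15, those genes themselves left out, 5 were higher and 1 lower (median 0.04). The highest was *Il12rb2* (2.92 and 4.58 CPM, 0.65, higher in both sexes), and *Il15ra* was at 0.11. None of 9 genes for cytokine mRNA decay passed 0.1, with *Khsrp* the highest (0.03) and *Zfp36* the lowest (-0.08).

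Immediate early and heat shock genes, which cells can switch on while they are isolated, were mostly lower in LEM beside these differences. The 15 genes of this list summed to 14520 CPM in VEH and 12910 in LEM, and 11 were lower past 0.1 (14.2% of all genes) and 0 higher. *Hspa1b* (-1.11) and *Hspa1a* (-0.83), the heat shock genes, had the lowest ratios. These were -0.63 and -0.09 in female and -1.28 and -1.10 in male cells. With thinned cells put into 4 bins of about equal size by these counts over both libraries, the share with *Il1a* went from 29.0% in the lowest to 36.6% in the highest in VEH, and from 31.1% to 39.9% in LEM. *Nlrp3* went from 15.3% to 18.5% and from 16.3% to 19.5%. *Tnf* was at 5.33% and 5.11% in the lowest and highest bins of VEH and at 4.23% and 5.52% in LEM, and *Il1b* at 0.918% and 0.897% and at 0.947% and 0.824%. *Il1a*, *Il6*, *Il18*, *Tnfsf8* and *Nlrp3* were higher in LEM than in VEH in every bin and *Il15* was lower in every bin. The intervals of the libraries overlapped in every bin for *Il18* and *Nlrp3* and in some bins for *Il1a*, *Il6* and *Il15*. They were apart in every bin only for *Tnfsf8*, at 2.61% to 3.41% in VEH and 4.34% to 5.47% in LEM. The share of all genes with the same direction in every bin is not given. The part of these genes in the differences was not tested.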

How the data were processed

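The authors sorted live CD45lo CD11b+ microglia, made 10x 5′ libraries and, per the labels, counted reads with Cell Ranger 8.0.0 on mm10. Their methods name SoupX for free RNA and filters of at least 500 genes, at most 20000 counts and 2.5% mitochondrial counts. The file that the authors deposited holds UMI counts per gene and cell, all whole numbers and without normalization, and whether the SoupX correction is in them could not be told. Cell names give the treatment, and 0 columns were left unmatched. Cells are numbered in the file, so shared barcodes could not be counted. No cell types are annotated.

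Members were the rows of the 10 named genes. Members and gene lists were chosen with earlier results of these data known, so agreement with those is not independent support. Counts were summed per library, state or sex and divided by the total (CPM). Sums have exact Poisson intervals, ratios exact conditional binomial intervals and shares Clopper-Pearson intervals, at 95%. With 1 library per treatment no p-value was computed, and a log2 ratio past 0.1 in genes found in at least 1% of cells is called higher or lower. No ratio is given where both counts are at or under 3. Interval bounds rest on counts as independent draws. Cells were thinned once to 2000 counts, without replacement, leaving out 1305 VEH and 1215 LEM cells. A droplet with *Xist* alone was called female and one with only *Ddx3y*, *Eif2s3y*, *Kdm5d* or *Uty* male. Gates, in order, were at least 100 *Ttr* counts (choroid plexus), 3 of 6 BAM, neutrophil, monocyte, or 8 lymphoid markers, 3 of 6 mitotic, 4 of 8 interferon, 3 of 6 DAM markers, 10 counts of *H2-Aa*, *H2-Ab1* and *H2-Eb1*, 10 counts of *Ccl3* and *Ccl4*, and *P2ry12*, *Cx3cr1* and *Tmem119* all present. No doublet caller was run, and droplets of both sexes were left out in an alternative. Named genes are the members, their receptors and processing partners, the highest and lowest ratio of each list, gate markers and leading genes, immediate early and heat shock genes and the 3 genes most like each member. Alternatives were 2 other scalings, thinned cells, shallower cells, cells outside the gates of other cell types, sexes weighted equally, 10% detection, a fold of 0.3, at least 2 counts, thinning to 4000 and stricter gates. Another microglial marker is not reported here. Positions are from GENCODE M21. Steps were tested on simulated data. Python 3.11.15, numpy 2.4.6, scipy 1.17.1 and matplotlib 3.10.9 were used.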

Additional observations from a re-analysis of the deposited data

Results flagged for a closer look

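Among the 8 members in at least 1% of cells, 3 had LEM over VEH log2 ratios past 0.1 in opposite directions in female and male cells, which 10.3% of the 11905 genes did. *Il12b*, which is below that minimum, did so as well. None of these differences between the sexes was tested, since each sex of each library is 1 pool. The ratio in female cells minus that in male cells was 1.00 for *Tnf*, 1.18 for *Il6* and 0.37 for *Nlrp3*. For *Il12b* it was 1.14, with 8 to 33 counts in each pool and intervals of both ratios that included 0. In VEH, female cells had less *Tnf* and *Il6* than male cells (log2 -0.42 and -0.67), and in LEM they had more (0.58 and 0.51). Within homeostatic-like cells alone *Tnf* had the same order, with 21.7 CPM in female and 32.4 in male VEH cells and 30.6 and 19.2 in LEM, as had *Il6*, with 9.23, 13.6, 18.3 and 12.2. How many mice of each sex were pooled is not given in the sources used here, and treatment and the particular mice of a pool cannot be told apart.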

How the results depend on the processing

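No paired analysis was possible because each treatment is 1 library. Of 90 alternative values of the 10 member ratios, 78 stayed within the counting interval, and the largest move of the median over all genes by another scaling was from 0.01 to 0.00. Leaving out cells with 10 or more counts of the gene, chosen after seeing the data, gave 0.13 for *Il1a*, 0.67 for *Il1rn*, -0.20 for *Tnf* and -0.089 for *Il12b*, whose direction turned. In cells of at most 10000 counts *Il1b* was 0.50, *Il1rn* 0.67 and *Il12b* 1.28. Without droplets of both sexes *Tnf* was -0.14 and *Il12b* 0.83, with sexes weighted equally -0.012 and 0.30, and *Il12b* in thinned cells was 1.32. *Tnfsf8* and *Il15* kept direction and size throughout. The 5 members higher became 3 at 10% detection and 1 at a fold of 0.3, and 4 with the median of ratios, the total without the 20 most abundant genes or sexes weighted equally, where *Il1a* was 0.09. The 1 lower became 2 without droplets of both sexes, where *Tnf* joined *Il15*, and 0 at 0.3. Genes of the lists, members included (10, 17, 26, 18, 19 and 9 found in at least 1% of cells), went from 23 higher to 15 at 10% detection and 5 at 0.3. They went from 12 lower to 1 at 0.3. In the main setting 21% of all genes were higher and 14.2% lower. The shares over all genes at the other settings are not given, so these counts show only how members and lists depend on the setting. At 10% detection fewer genes are tested, and a fold of 0.3 is harder to pass. Pairs with a co-detection log2 odds ratio over 0.5, counted per library, went from 5 to 8 within homeostatic-like cells, and the cause was not tested. Of 363 values by state 292, and of 40 by share 29, stayed within their interval, and 1 called direction turned, *Il1a* in interferon-like over homeostatic-like VEH cells, which was 0.16 and became -0.10 without cells of 10 or more counts. Depth limits *Il1rn* and *Il12b*, which have at most 334 counts in a library, and *Il6*, whose share is near that of choroid plexus-like droplets. Those droplets also hold microglial RNA.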

Other observations

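Droplets that met no gate, 616 in VEH and 803 in LEM, were shallow, with a median of 1962 and 1839 counts. *Il15* was 135 and 86.7 CPM in them against 60.2 and 49.8 in homeostatic-like cells, and *Nlrp3* was 136 and 111 against 95.05 and 101, where the LEM intervals do not set it apart (log2 ratio 0.14, -0.07 to 0.34). *Tnfsf8* was 22.0 and 37.3 CPM against 13.7 and 23.2. *Il6* was 2.75 and 7.13 CPM against 11.8 and 14.8. The nuclear transcript *Malat1* was 14400 and 12510 CPM in these droplets against 8781 and 8539, and the 5 microglial markers summed to 11530 and 14620 CPM against 28420 and 28890. Of those markers *P2ry12* and *Cx3cr1* also define the homeostatic-like gate, so a lower sum outside it is partly set by the gate. *Il15*, *Nlrp3* and *Il18* had *Malat1* among the 3 genes most like them over thinned cells (r = 0.06 and 0.05, 0.07 and 0.06, and 0.03 and 0.04, in VEH and LEM), and *Il18* was not higher in these droplets (70.9 and 74.6 CPM against 72.2 and 79.7). In LEM, 49 *Il1rn* counts of these droplets lay in 1 cell of 3487 counts. The part of nuclear RNA in these levels was not tested.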
